A study of Mus musculus with 4 samples.

Results

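The genes of taurine synthesis, transport and use in mouse liver were described across 4 arrays. They were Csad, Cdo1, Gadl1, Ado, Slc6a6, Slc6a13 and Baat, 7 of the 22180 genes that a single-symbol probe set named, and they were selected on earlier results of these arrays, above all the low log2 values of Csad on high-fat diet. Each had 1 probe set, and all 7 passed the filter on dim genes, which left 13308 genes. The arrays held total liver RNA of C57Bl6 mice aged 16 weeks, 1 array per group and 4 to 5 mice pooled on each. The groups were knockout mice (ALB Cre MyD88 lox/lox) on a high-fat diet with 60% fat, wild-type mice (MyD88 lox/lox) on the same diet, knockout mice on a control diet with 9.4% fat, and wild-type mice on the control diet. All 4 groups carried the floxed Myd88 alleles, and the wild-type mice had no Cre in their labels. Cre under the albumin promoter acts in hepatocytes, so the other cells of the knockout liver keep the gene. Myd88, the adaptor of Toll-like and interleukin-1 receptors, had a log2 value of 6.23 in knockout and 6.44 in wild type on high-fat diet, and 5.91 in knockout and 6.10 in wild type on control diet; whether its probes lie in the deleted part was not analysed here, so these values do not check the deletion.

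Taurine is a sulfur-containing amino acid that liver makes from cysteine. Cysteine dioxygenase (Cdo1) oxidises cysteine to cysteine sulfinate, cysteine sulfinate decarboxylase (Csad) turns that into hypotaurine, and hypotaurine is oxidised to taurine. A second route starts from cysteamine, a product of coenzyme A breakdown, which the dioxygenase Ado oxidises to hypotaurine. Hepatocytes also take taurine up from blood, and the enzyme Baat couples it to bile acids, which in mice are carried mostly as taurine conjugates.

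Csad stood apart from the other genes of the route. Its value was lower under high-fat feeding, by 2.76-fold in knockout and 12.2-fold in wild type, while the 6 other genes differed by less than 2-fold in every comparison. The first enzyme of the same route, Cdo1, and the enzyme that uses taurine, Baat, had nearly level values on the 4 arrays. Both transporters were highest in wild type on control diet, and Ado was lower on high-fat diet by nearly the same amount in both genotypes. With 1 pooled array per group none of these differences has a replicate check, and Csad was among the genes chosen because of its values, so all of them are given as descriptions with no test. In bulk liver RNA, fewer cells of a type and less RNA per cell cannot be told apart.

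Because the results turn on Csad, the letters upstream of its start sites are shown. RefSeq lists Csad on the minus strand of chromosome 15 with 2 promoter windows in build GRCm38.p6, each running from 250 bases before a start site to 50 bases after it. The first lies at chr15:102205003-102205302 and the second at chr15:102188994-102189293, both read 5′ to 3′ along the minus strand. Capitals mark a match to any of 5 motifs searched on both strands.
Csad window 1: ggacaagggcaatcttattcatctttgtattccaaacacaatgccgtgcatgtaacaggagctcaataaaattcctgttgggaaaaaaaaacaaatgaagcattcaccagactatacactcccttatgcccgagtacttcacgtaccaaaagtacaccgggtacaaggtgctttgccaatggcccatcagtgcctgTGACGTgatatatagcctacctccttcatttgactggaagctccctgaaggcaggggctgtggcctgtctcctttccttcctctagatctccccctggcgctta
Csad window 2: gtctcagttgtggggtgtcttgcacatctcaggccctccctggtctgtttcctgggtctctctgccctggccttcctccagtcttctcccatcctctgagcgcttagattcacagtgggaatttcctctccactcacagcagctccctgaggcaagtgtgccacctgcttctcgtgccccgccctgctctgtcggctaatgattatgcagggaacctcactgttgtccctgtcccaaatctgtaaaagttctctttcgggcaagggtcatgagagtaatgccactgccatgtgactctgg

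The motifs were the E-box CACGTG, the D-box TTATGNAA, the nuclear receptor hexamer AGGTCA, the cyclic AMP element hexamer TGACGT and the TATA box TATAAA, and none of them contains another. Window 1 held 1 match, to TGACGT, whose first base lies 54 bases upstream of the start site, and this motif was found in 7.51% of all 32851 promoter windows. Window 2 held no match to any of the 5. The E-box was present in 7.15% of all windows, the D-box in 3.38%, the nuclear receptor hexamer in 16.3% and the TATA box in 13.6%. A match is a description of the letters, and an absent match says only that the motif is not in that window. The windows had a GC content of 47.3% and 55.3%.

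Csad (probe set 17322146) is the decarboxylase that forms hypotaurine; its RefSeq span overlaps that of Zfp740, and where its probes lie relative to that gene is unknown here, so its values may include signal of Zfp740. Its log2 value was 6.71 in knockout and 5.71 in wild type on high-fat diet, and 8.18 in knockout and 9.32 in wild type on control diet. Both high-fat arrays lay below both control arrays, wild type was the lowest of the 4 on high-fat diet and the highest on control diet, and the knockout arrays lay between the wild-type ones. With no replicates, the spread that would separate neighbours in this order is unknown. The plot of the 7 genes by array shows this order beside the narrow range of the others.

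**Figure D1:**
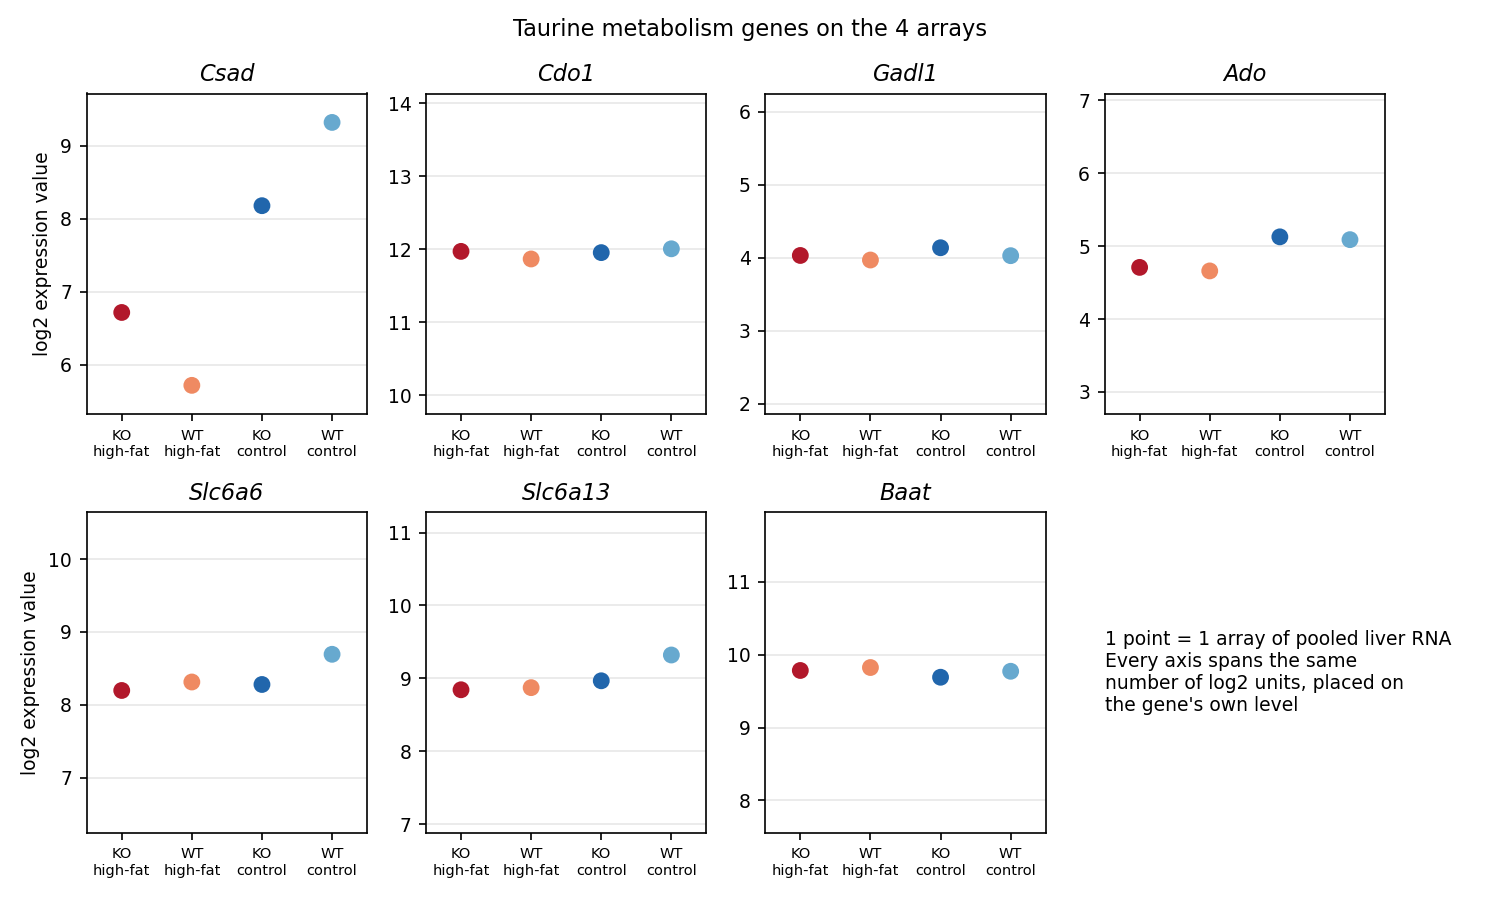
Log2 expression value (vertical axis) of each taurine gene on the 4 arrays (horizontal axis), 1 point per pooled array and no error bars because each group has 1 array. Every panel spans the same number of log2 units on its gene's own level; Csad runs between 5.71 and 9.32, and the other 6 genes stay within 0.50 log2 units.

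The diet difference of Csad, as high-fat minus control, was -1.46 log2 in knockout and -3.61 log2 in wild type. In knockout it ranked 9 from the bottom of all 13308 genes, and in wild type it was the lowest. Of the 7 genes, 1 was at least 2-fold lower with the high-fat diet in either genotype, in each case Csad. Over all genes, 0.286% were at least 2-fold lower in knockout and 0.564% in wild type, and 10 genes (0.0751%), Csad among them, were so in both. These values chose the gene, and nothing is read from the counts.

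Between genotypes Csad differed in opposite directions on the 2 diets. On high-fat diet its value was higher in knockout by a log2 difference of 0.9997, just short of 2-fold, and 30 genes (0.225%) were at least 2-fold higher. On control diet it was lower in knockout by a log2 difference of -1.14, or 2.21-fold, the value of rank 15 from the bottom; 0.158% of genes were at least 2-fold lower there, and 1 of the 7 taurine genes. The diet difference in knockout minus that in wild type was 2.14 log2, rank 7 from the top of all genes. Each array enters one diet and one genotype comparison, so the 4 differences are not independent: the wild-type control array, where Csad was highest, enters the wild-type diet difference and the genotype difference on control diet.

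**Figure D2:**
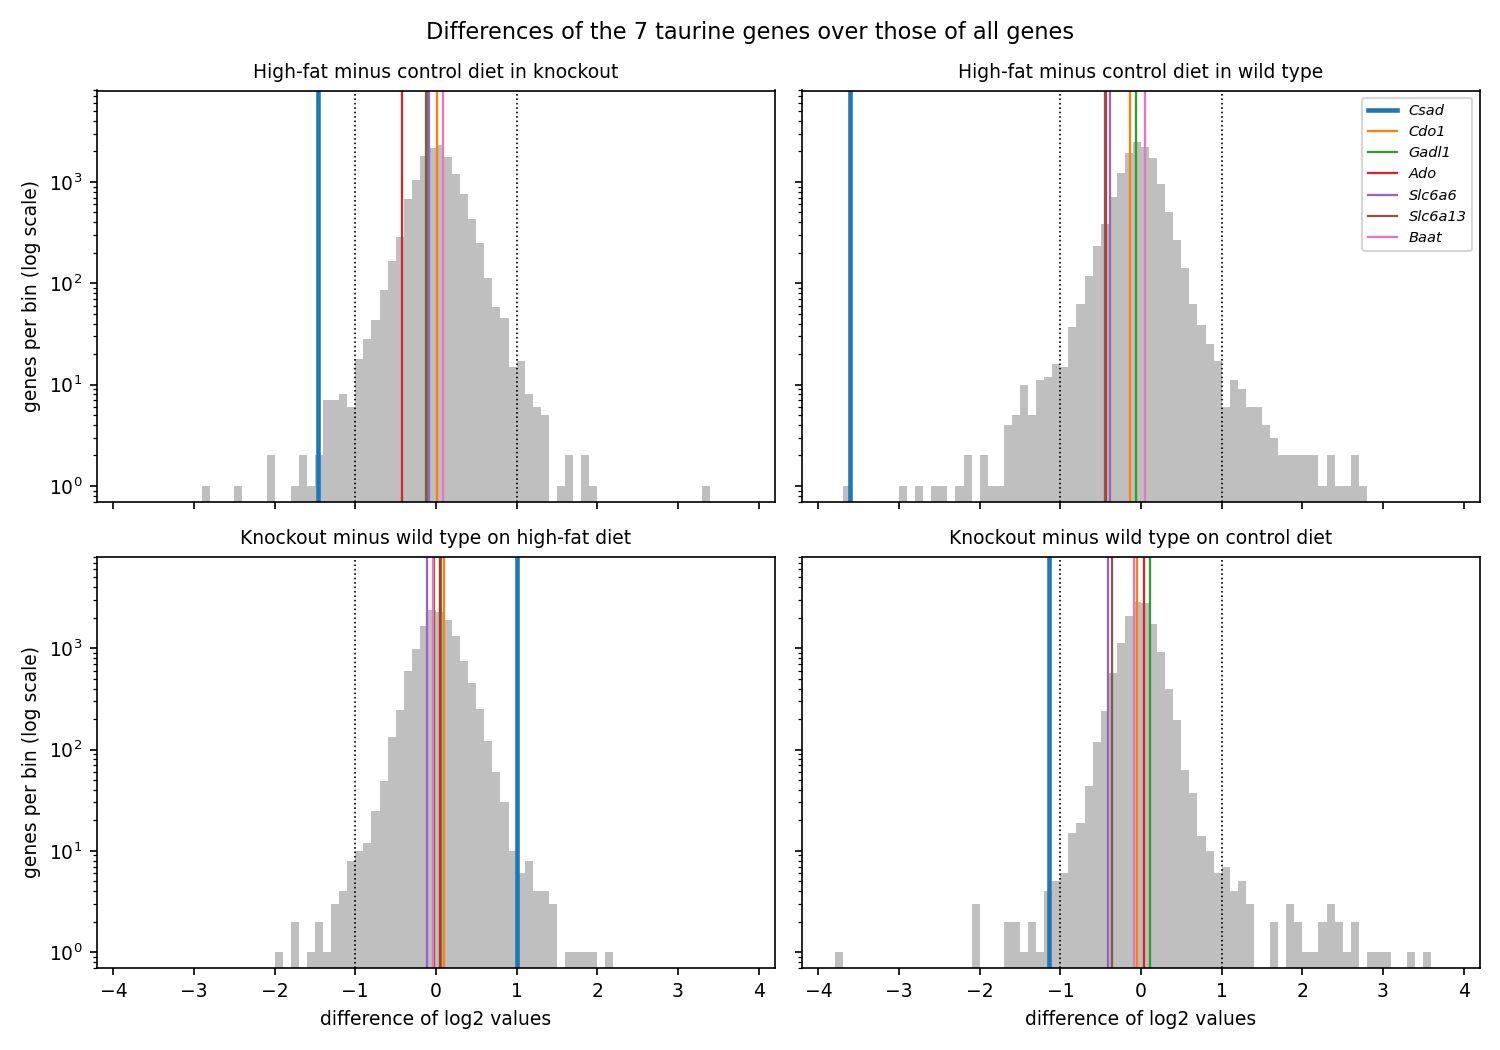
Distribution of the difference of log2 values (horizontal axis) over the 13308 genes, in bins with the number of genes on a log scale (vertical axis), for the diet comparison in each genotype and the genotype comparison on each diet. Coloured lines mark the 7 taurine genes, dotted lines mark 2-fold, and a few genes beyond the axis are not drawn; Csad lies at -1.46, -3.61, 0.9997 and -1.14, away from the other 6 in each panel.

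Upstream of Csad, Cdo1 (probe set 17354282), which commits cysteine to sulfinate formation, had log2 values of 11.97 in knockout and 11.87 in wild type on high-fat diet, and 11.95 in knockout and 12.01 in wild type on control diet. The arrays of the 2 diets overlapped. Its diet difference was 0.02 in knockout and -0.14 in wild type, against a central 95% of all genes between -0.52 and 0.57 in knockout and between -0.59 and 0.51 in wild type.

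Gadl1 (probe set 17522818), an acidic amino acid decarboxylase related to Csad, had log2 values of 4.03 in knockout and 3.97 in wild type on high-fat diet, and 4.14 in knockout and 4.03 in wild type on control diet. The arrays of the 2 diets overlapped and spanned 0.17 log2 units. These values lie not far above the dim filter at 3.47, and RMA compresses differences of dim probe sets; whether the probe set was above background is unknown from the deposited table. RefSeq places 4 non-coding or pseudogene entries over the span of Gadl1, which could share its signal.

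Ado (probe set 17241643), the cysteamine dioxygenase, had log2 values of 4.71 in knockout and 4.66 in wild type on high-fat diet, and 5.13 in knockout and 5.09 in wild type on control diet. The arrays separated by diet with almost no difference between genotypes. The diet difference was -0.42 in knockout and -0.43 in wild type, inside the central 95% of all genes in both, and in knockout 4.52% of genes had a value as low. The genotype difference was 0.05 on high-fat diet and 0.04 on control diet.

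Slc6a6 (probe set 17460941) encodes the sodium-dependent taurine transporter. Its log2 value was 8.20 in knockout and 8.31 in wild type on high-fat diet, and 8.28 in knockout and 8.69 in wild type on control diet. RefSeq places 1 long non-coding RNA entry over the span of Slc6a6, which could share its signal. The wild-type control array lay 0.38 log2 units above the next, and the other arrays were within 0.12 of each other. The diet difference was -0.08 in knockout and -0.38 in wild type, and the genotype difference was -0.12 on high-fat diet and -0.41 on control diet, a value that 3.13% of genes reached or went below.

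Slc6a13 (probe set 17462451) encodes a carrier of GABA and taurine that is found on hepatocytes in mice. Its log2 value was 8.84 in knockout and 8.87 in wild type on high-fat diet, and 8.97 in knockout and 9.32 in wild type on control diet. As for Slc6a6, wild type on control diet was highest, here by 0.35 over the next array, with the other arrays within 0.12. The diet difference was -0.12 in knockout and -0.45 in wild type, and the genotype difference was -0.03 on high-fat diet and -0.35 on control diet. Both transporters were high on the array on which Csad was high, and this rests on that single array.

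Baat (probe set 17425221), the enzyme that joins bile acids to taurine, had log2 values of 9.78 in knockout and 9.82 in wild type on high-fat diet, and 9.69 in knockout and 9.77 in wild type on control diet. Both high-fat arrays lay above both control arrays, but all 4 were within 0.13 log2 units. The diet difference was 0.09 in knockout and 0.05 in wild type. Its span also overlaps 1 long non-coding RNA entry of RefSeq.

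By diet, 3 of the 7 genes (Csad, Ado and Slc6a13) had both high-fat arrays below both control arrays, as did 21.2% of all genes, and 1 (Baat) had them above, as did 19.1% of all genes. The median diet difference of the 7 was -0.11 in knockout and -0.38 in wild type, beside medians over all genes of 0.01 in knockout and -0.03 in wild type. Without Csad, the 6 others ran between -0.42 and 0.09 in knockout and between -0.45 and 0.05 in wild type. In each of the 4 comparisons 1 of the 7 lay outside the central 95% of all genes, and it was Csad. Its values were among those that chose the genes and the 4 comparisons share arrays, so nothing is read from this.

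Genes around the route were read from 9 lists of 85 distinct genes, of which 75 passed the filter on dim genes. On high-fat diet in knockout 1 of the 75 was at least 2-fold higher and 0 lower, against 0.323% of all genes higher and 0.609% in either direction; in wild type 0 were 2-fold different, against 1.05%. In knockout against wild type 0 of the 75 were 2-fold different on high-fat diet, against 0.391% of all genes. On control diet 1 was lower and 0 higher, against 0.158% of all genes lower and 0.503% in either direction. There is no test behind these counts, since each group has 1 array. Counts of higher and lower genes per list are given below without the share over all genes, which was not computed, so nothing is read from them. The median diet difference over all genes was 0.01 in knockout and -0.03 in wild type.

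The methionine cycle and transsulfuration supply cysteine. Of 9 measured genes, 5 had a higher and 4 a lower value on high-fat diet in knockout, and 4 higher and 5 lower in wild type, with medians of 0.11 in knockout and -0.0042 in wild type. Cbs, which condenses homocysteine with serine, differed by -0.35 in knockout and -0.30 in wild type, and Cth, which releases cysteine from cystathionine, by 0.26 in knockout and -0.10 in wild type. The betaine methyltransferase relative Bhmt2 differed by 0.31 in knockout and 0.37 in wild type.

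Cysteine is also used for glutathione, sulfate and sulfide. Of 16 measured genes of these fates, 10 had a higher and 6 a lower value on high-fat diet in knockout, and 6 higher and 10 lower in wild type, with medians of 0.13 in knockout and -0.17 in wild type. Gclc, the catalytic subunit of the first enzyme of glutathione synthesis, differed by -0.01 in knockout and -0.65 in wild type. Chac2, a glutathione-degrading enzyme, was higher by 0.83 in knockout and 0.42 in wild type. Papss2, which makes the activated sulfate donor, was higher by 0.42 in knockout and 0.54 in wild type, and Ggt6 differed by -0.70 in knockout and -0.52 in wild type.

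The coenzyme A and cysteamine list, which leads to the substrate of Ado, had 8 measured genes, 5 of them higher on high-fat diet in knockout and 4 in wild type. Pank3, a pantothenate kinase, differed by 0.66 in knockout and -0.08 in wild type. Vnn1, the pantetheinase that releases cysteamine, differed by 0.45 in knockout and -0.17 in wild type. Ppcs, which joins phosphopantothenate to cysteine, was lower in knockout by -0.39 on high-fat diet and -0.72 on control diet.

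Of 5 genes that form or use taurine beyond the 7, 3 were higher on high-fat diet in knockout and 2 in wild type. Fmo1, a monooxygenase that can oxidise hypotaurine, differed by 0.46 in knockout and -0.19 in wild type. Mto1, which takes part in the taurine modification of mitochondrial transfer RNA, differed by 0.01 in knockout and 0.45 in wild type. The 4 measured subunits of the volume-regulated channels, through which cells release taurine, lay between -0.20 and 0.10 in knockout and between -0.31 and 0.22 in wild type. Of the 3 measured genes on the list of related transporters, Slc6a8, the creatine carrier, differed by -0.62 in knockout and -0.85 in wild type. Slc6a12 differed by -0.15 in knockout and 0.16 in wild type, and Slc36a1 by 0.05 in knockout and -0.01 in wild type. The 3 measured related decarboxylases, Gad1, Ddc and Hdc, lay between -0.31 and -0.03 in knockout and between -0.22 and 0.18 in wild type. None had a diet difference near that of Csad. However, the mean log2 values of Gad1 (3.51) and Hdc (4.12) lie not far above the dim filter at 3.47. A large drop could hardly show at such values, so the comparison says little for these genes.

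Bile acids are the partners to which liver couples taurine. Of 14 genes of their synthesis, 8 were higher on high-fat diet in knockout and 11 in wild type, with medians of 0.03 in knockout and 0.16 in wild type. Cyp7a1, the rate-limiting enzyme, differed by 0.75 in knockout and 0.49 in wild type, and Akr1d1, a reductase of the same route, by 0.80 in knockout and 0.49 in wild type. Cyp7b1, a hydroxylase of the alternative route, differed by -0.04 in knockout and 0.86 in wild type. Slc27a5, the ligase that prepares bile acids for Baat, differed by -0.0027 in knockout and 0.12 in wild type. Of 13 measured genes of bile acid transport and sensing, 9 were higher on high-fat diet in knockout and 4 in wild type. Their medians were 0.08 in knockout and -0.06 in wild type. Slco1a4, an organic anion carrier, was the gene of the 75 past 2-fold: it differed with diet by 1.24 in knockout and -0.67 in wild type, and was lower in knockout by -1.48 on control diet. Abcb11, the bile salt export pump, differed by -0.21 in knockout and -0.53 in wild type, and Nr0b2, a repressor of bile acid synthesis, by -0.40 in knockout and -0.54 in wild type. The plot of the lists shows Csad to the left of every other gene in both genotypes.

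**Figure D3:**
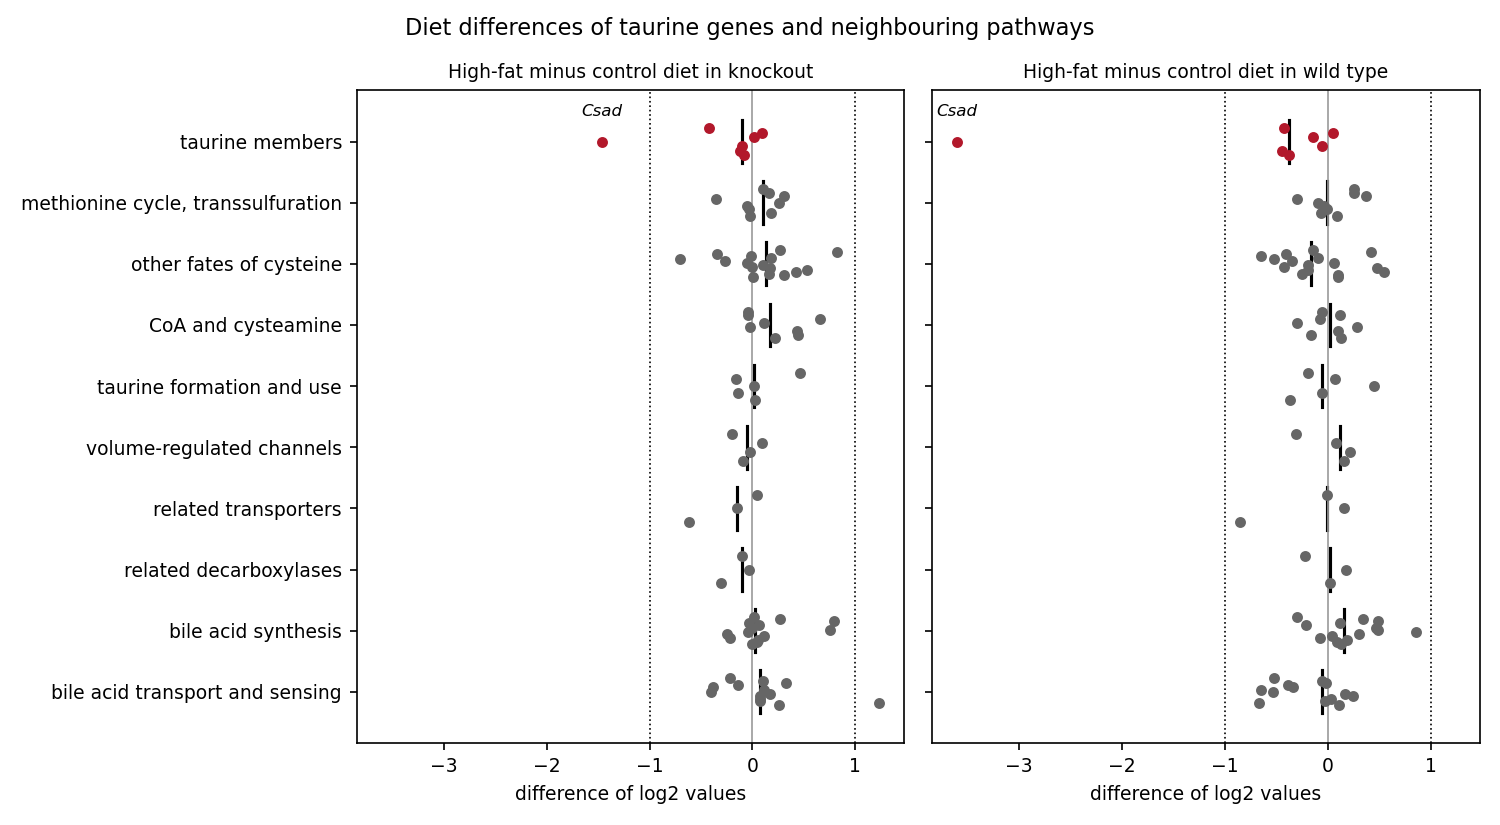
Difference of log2 values, high-fat minus control diet (horizontal axis), for the measured genes of the 7 taurine genes and the 9 neighbouring lists (rows), in knockout and wild type; each point is 1 gene, black bars are list medians and dotted lines mark 2-fold. Csad lies at -1.46 in knockout and -3.61 in wild type, and the next lowest genes are Ggt6 at -0.70 in knockout and Slc6a8 at -0.85 in wild type.

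The genes nearest to Csad in pattern were found by the Euclidean distance over the 4 arrays, after each gene's own mean over the arrays was subtracted. The 5 nearest protein-coding genes were Cyp4a14, a fatty acid omega-hydroxylase, at a distance of 0.70 log2 units, the tubulin gene Tubb2a at 0.87, the malic enzyme gene Me1 at 1.09, the glutathione transferase gene Gstm3 at 1.12 and the hormone gene Fgf21 at 1.13. All 5 had both high-fat arrays below both control arrays, as did 21.2% of all genes. These 5 were picked for nearness to Csad on the same arrays, so a shared separation or order follows from the choice. Cyp4a14 had log2 values of 9.92 in knockout and 9.15 in wild type on high-fat diet, and 10.84 in knockout and 11.94 in wild type on control diet. Cyp4a14, Tubb2a, Me1 and Gstm3, 4 of the 5, had the same order of arrays as Csad. Fgf21 was level between genotypes on high-fat diet, at 5.14 in knockout and 5.16 in wild type, unlike Csad. Cyp4a14, Tubb2a and Gstm3 have close relatives whose transcripts may share their probes, so their values are uncertain. The measure has 4 points per gene and is a description; ranked by Pearson correlation among genes that span at least 1 log2 unit, 1 of these 5 genes, Cyp4a14, was again among the first 5.

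**Figure D4:**
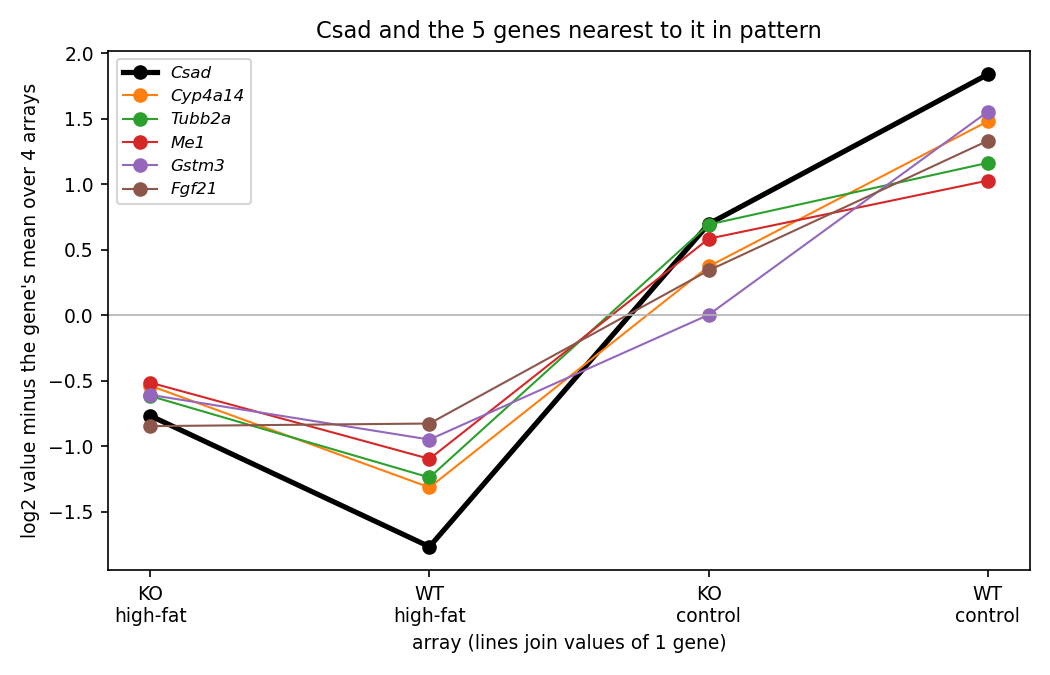
Log2 value minus the gene's own mean over the 4 arrays (vertical axis) for Csad and the 5 genes nearest to it, by array (horizontal axis); lines join the values of 1 gene. Csad has the widest span, and all 6 genes lie below 0 on both high-fat arrays. The 5 were picked for nearness to Csad on these arrays.

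The neighbours of Csad on its chromosome had smaller differences. They were chosen after the values were seen, as the nearest protein-coding genes in RefSeq, of which Igfbp6, Zfp740 and Itgb7 had a single-symbol probe set. Zfp740 had log2 values of 5.04 in knockout and 4.63 in wild type on high-fat diet, and 4.84 in knockout and 4.89 in wild type on control diet. Its diet difference was 0.19 in knockout and -0.25 in wild type. Igfbp6 differed with diet by 0.02 in knockout and 0.18 in wild type, and Itgb7 was below the filter on dim genes.

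Marker lists of other cell types were summed on the linear scale over every marker with a single-symbol probe set, dim ones included. Hepatocyte markers, all 5 measured, summed to 42808 in knockout and 42925 in wild type on high-fat diet, and to 42526 in knockout and 41600 in wild type on control diet. Pancreas markers, 7 of 8 measured, summed to 4194 in knockout and 1857 in wild type on high-fat diet, and to 1903 in knockout and 413 in wild type on control diet; they were lowest on the array where Csad was highest. Muscle markers, 6 of 7 above the filter, summed to 267 in wild type on high-fat diet, where Csad was lowest, and to between 102 and 122 elsewhere. Kupffer cell markers, 6 of 6, summed to 1208 in knockout and 1178 in wild type on high-fat diet, and to 1232 in knockout and 1322 in wild type on control diet, so they were highest on the array where Csad was highest. The bright markers Clec4f and Vsig4 carry most of that sum. The median diet difference of the 6 was 0.02 in knockout, with 3 lower, and -0.44 in wild type, with 4 lower. In wild type Marco differed by -0.72, Adgre1 by -0.63, Timd4 by -0.54 and Vsig4 by -0.35, but Clec4f by 0.08 and Cd5l by 0.09. In knockout Marco differed by 0.39, Adgre1 by 0.18 and Vsig4 by 0.15, but Timd4 by -0.12, Clec4f by -0.15 and Cd5l by -0.32. Endothelial markers, 5 of 5, summed to 1534 in knockout and 1390 in wild type on high-fat diet. On control diet they summed to 1566 in knockout and 1576 in wild type. The Kupffer cell and endothelial sums had the same order of arrays as Csad, but of their single markers only Timd4 and Kdr had it. Clec4f was highest in knockout on control diet, and Vsig4 and Lyve1 in knockout on high-fat diet. The share of all genes with this order was not computed, so nothing is read from it. Of the 5 endothelial markers, 3 were lower on high-fat diet in knockout and 4 in wild type. Stellate cell markers, 5 of 5, summed to between 1919 and 2221. Cholangiocyte markers, 3 of 5 above the filter, summed to between 51.2 and 56.4, and adipocyte markers, 2 of 5, to between 42.2 and 45.6. Their part in the differences of Csad was not tested.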

How the data were processed

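Liver RNA of 4 groups was profiled on 4 Affymetrix arrays, 1 per group, each made from RNA that the labels' protocols describe as pooled from 4 to 5 mice picked on RNA quality. The authors deposited log2 values for each probe set; the submitters' processing notes name RMA and Affymetrix Expression Console, and the software version is not given in the sources used here. This procedure removes array-wide differences in brightness and compresses differences of dim probe sets. Signal over background is unknown, and the number of arrays limits the precision.

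Of 41345 probe sets, 23521 had 1 symbol in the platform annotation, 1814 had several and 16010 had none; only those with 1 were named. Each of 22180 genes was read from its probe set with the highest mean, and genes with a mean below the 40th percentile (3.47) were left out. Differences are subtractions of log2 values, counted at 2-fold, with no p-value because groups have 1 array. The functions were tested on simulated data. The 7 genes, the lists around them and which genes may be named (members, list genes past 2-fold and up to 4 others per list, the 5 nearest in pattern, and Myd88) were chosen with earlier results of these data known; neighbours of Csad were added after its values were seen. Alternatives were quantile, cyclic loess and median scaling, averaged probe sets and other filters. Promoter letters are RefSeq's (GRCm38.p6); windows were found for Csad, Gadl1, Ado and Slc6a13. Python 3.11.15, pandas 2.3.3, NumPy 2.4.6, matplotlib 3.10.9, R 4.3.3 and limma 3.58.1 were used.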

Additional observations from a re-analysis of the deposited data

Results flagged for a closer look

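The genotype difference of Csad had opposite signs on the 2 diets, 0.9997 on high-fat diet and -1.14 on control diet, which differ by 2.14 log2. The signs of Cdo1 were also opposite, at 0.10 on high-fat diet and -0.05 on control diet, and its diet differences were 0.02 in knockout and -0.14 in wild type; the gap is 0.16 in both cases. With 1 array per group neither difference was tested.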

How the results depend on the processing

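Over quantile normalisation, cyclic loess, median centring and averaged probe sets, the diet difference of Csad stayed between -1.51 and -1.44 in knockout and between -3.62 and -3.55 in wild type, and its genotype difference between 0.93 and 1.02 on high-fat diet and between -1.15 and -1.11 on control diet, so its place just short of 2-fold on high-fat diet depends on the scaling. None of the 112 recomputed differences of the 7 genes changed sign, and the largest move was 0.07 log2. Those from averaged probe sets could not change, because each of the 7 genes has 1 probe set. With no replicates, a move was judged against the robust spread over all genes. The number of genes at 2-fold, also with no filter or one at the 60th percentile, ran between 77 and 81 for diet in knockout, 134 and 142 for diet in wild type, 49 and 54 for genotype on high-fat diet, and 64 and 68 on control diet. Of 132 recomputed list medians, 16 changed sign and all moved by less than that spread. Of the 5 genes nearest to Csad, 1 was kept by correlation. No paired analysis was possible because each group has 1 array.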

Other observations

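Clock genes and sex-biased liver genes were read on the same arrays. Of 14 measured clock genes, 8 were higher on high-fat diet in knockout and 9 in wild type. Both high-fat arrays lay below both control arrays for 5 of them and above for 7, against 21.2% and 19.1% of all genes. In wild type 2 were at least 2-fold higher and 1 lower, against 0.488% and 0.564% of all genes. In knockout 0 were 2-fold different, against 0.609%. Arntl, the activator of the clock, differed by -0.997 in knockout and -1.97 in wild type, the repressor gene Per3 by 0.77 in knockout and 1.24 in wild type, and Ciart by 0.94 in knockout and 1.08 in wild type. Of 10 measured sex-biased liver genes, 1 was at least 2-fold higher and 0 lower on high-fat diet in knockout, against 0.323% of all genes higher; this was Cyp2b9, which differed by 3.32 in knockout and -1.44 in wild type. In the same list 4 were at least 2-fold lower with the high-fat diet in wild type, against 0.564% of all genes. These were Cyp2b9, Cyp2b13, Cyp2a4 and Elovl3. In that comparison 7 of the 10 genes were lower and 3 higher: Cyp7b1 by 0.86, Hsd3b5 by 0.25 and Cyp2d9 by 0.08. In knockout against wild type, 3 were at least 2-fold lower on control diet (Cyp2b9, Cyp2b13 and Cyp2a4), against 0.158%. The list was not split by the sex in which a gene is higher, so no shift towards either sex is read from its counts. The Cyp2a and Cyp2b genes have near-identical copies, so their values are uncertain. On high-fat diet Cyp2a4 had log2 values of 7.87 in knockout and 7.80 in wild type. On control diet it had 8.12 in knockout and 9.21 in wild type, its highest value. Cyp2b9, Cyp2b13, Cyp4a12a and Elovl3 were also highest on the wild-type control array, while Cyp7b1 and Hsd3b5 were lowest there. The share of all genes highest on that array was not computed. Kdm5d, Uty and Eif2s3y, which lie on the Y chromosome, were above the filter and Xist was below it; these 4 summed on the linear scale to 519 in knockout and 355 in wild type on high-fat diet, and to 358 in knockout and 350.2 in wild type on control diet. Which part these lists have in the values of Csad was not tested.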
